A study of Mus musculus with 5 samples.

Results

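CREB, the transcription factor that is phosphorylated when cAMP signalling activates protein kinase A, was profiled in the mouse fetal testis by CUT&RUN, which frees short DNA fragments around an antibody-bound protein with a tethered nuclease. The regions described here carried a CREB peak at E16.5 (E, embryonic day) and at neither of the other CREB stages, and they lay at an end of a protein-coding gene. They were chosen by merging the CREB peaks of 3 libraries, E13.5, E16.5 and E18.5, wherever peaks overlapped by at least 1 bp on the assembled chromosomes, and by keeping regions with an E16.5 peak alone that overlapped the 1000 bp on either side of a gene end (RefSeq, mm10). Of 4092 merged regions, 1150 held an E16.5 peak only, and 683 of these lay at a gene end. Each of the 683 held 1 peak, and 660 had no midpoint of another CREB list within 1000 bp. Presence and absence of peaks chose the regions, so the stage pattern and the closeness to gene ends are descriptions and not findings.

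The libraries came from dissociated male gonads, with 1 library for each antibody and stage, so no value has a replicate check and stage and library cannot be told apart. The labels name the tissue, the antibody and the stage, and give no strain, genotype or treatment. An H3K4 library of E18.5 (the methylation state of this histone lysine is not named) was used beside the CREB libraries, and an IgG library was not analysed here. CREB peaks numbered 862 in the E13.5 library, 3528 in the E16.5 library and 2957 in the E18.5 library, and H3K4 peaks 21211. The most frequent peak width was 150 bp in the E13.5 list, 630 bp in the E16.5 list, 160 bp in the E18.5 list and 210 bp in the H3K4 list. Read depth is unknown, so an unlisted peak does not show that CREB was absent there. In the H3K4 list, 12 of 27 genes of steroidogenesis and Leydig cells, 12 of 23 Sertoli cell genes and 3 of 30 fetal germ cell genes had a peak at an end, against 6 of 13 endothelial genes and 2 of 19 genes of macrophages and blood cells. Over all protein-coding genes this share was 52.7%, and these lists were at or below it.

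CREB binds as a dimer to the cAMP response element (CRE), the palindrome TGACGTCA, and more weakly to the shorter core TGACG. Many of its sites lie shortly upstream of transcription start sites. In the testis, gonadotropins raise cAMP in Leydig and Sertoli cells, and CREB family proteins also act in germ cells.

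The full CRE was found in 52 of the 308 promoter windows that held a peak midpoint, within 50 bp of the midpoint in 40 of them, and was missing from the other windows. The stretches below are those of the first 10 regions in the order of the E16.5 list with a CRE upstream of the start site and within 50 bp of the peak midpoint. They are shown because they carry the full CRE, whose share is set beside that of the other groups below. Capitals mark the CRE, sequences run 5′ to 3′ on the strand of the gene, and they come from the RefSeq promoter windows of build GRCm38.p6, the assembly behind mm10.
Aasdh (chr5:76905486-76905553, minus strand): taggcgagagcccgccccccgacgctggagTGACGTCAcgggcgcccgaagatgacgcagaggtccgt
Pogk (chr1:166409856-166409923, minus strand): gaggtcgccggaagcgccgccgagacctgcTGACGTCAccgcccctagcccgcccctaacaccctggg
Tbck (chr3:132684094-132684143, plus strand): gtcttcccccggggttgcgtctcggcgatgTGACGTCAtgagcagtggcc
Epha2 (chr4:141301158-141301220, plus strand): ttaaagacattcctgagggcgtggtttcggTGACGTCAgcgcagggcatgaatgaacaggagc
Ice2 (chr9:69397883-69397950, plus strand): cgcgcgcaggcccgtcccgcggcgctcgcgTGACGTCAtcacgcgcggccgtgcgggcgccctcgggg
Orc5 (chr5:22550370-22550437, minus strand): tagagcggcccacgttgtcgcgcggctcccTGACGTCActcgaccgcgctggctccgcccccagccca
Nubpl (chr12:52097689-52097745, plus strand): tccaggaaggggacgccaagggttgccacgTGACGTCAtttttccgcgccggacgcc
Cenpw (chr10:30200561-30200628, minus strand): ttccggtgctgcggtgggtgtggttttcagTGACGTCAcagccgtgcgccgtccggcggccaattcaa
Fam50a (chrX:74312992-74313032, plus strand): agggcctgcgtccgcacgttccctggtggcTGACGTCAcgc
Mrpl16 (chr19:11770336-11770403, plus strand): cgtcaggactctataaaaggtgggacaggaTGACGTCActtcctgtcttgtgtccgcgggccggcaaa

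Further windows are shown because the gene belongs to one of the gene lists described below, or because the window holds 2 CREs. Rpl26 encodes a ribosomal protein, Uqcrfs1 the iron-sulfur subunit of respiratory complex III, and Pak1 a kinase that acts downstream of small GTPases.
Rpl26 (chr11:68901402-68901469, plus strand): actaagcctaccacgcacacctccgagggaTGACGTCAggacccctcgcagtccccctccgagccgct
Uqcrfs1 (chr13:30545317-30545375, minus strand): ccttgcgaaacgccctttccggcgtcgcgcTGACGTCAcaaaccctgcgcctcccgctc
Zfp523 (chr17:28177104-28177171, plus strand): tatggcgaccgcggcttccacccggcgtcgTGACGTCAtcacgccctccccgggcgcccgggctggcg
Pak1 (chr7:97788291-97788396, plus strand): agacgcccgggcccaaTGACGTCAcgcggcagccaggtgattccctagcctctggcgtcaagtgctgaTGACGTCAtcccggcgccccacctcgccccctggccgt

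Among the genes with such a stretch, Epha2, which encodes an ephrin receptor tyrosine kinase, had its E16.5 peak at chr4:141300877-141301506, with the CRE at the midpoint itself (0 bp) and 33 bp upstream of the start site. The nearest E18.5 midpoint lay 161296 bp away and the nearest E13.5 midpoint 1920667 bp away, while an H3K4 midpoint lay 537 bp away. At Rpl26 the CRE also stood at the midpoint, 134 bp upstream of the start site. At Orc5, which encodes a subunit of the origin recognition complex, the CRE lay 31 bp from the midpoint, and the nearest other CREB midpoint was 882936 bp away. At Cdkn2b, a cyclin-dependent kinase inhibitor gene, the window held a CRE 20 bp from the midpoint, and the nearest other CREB midpoint was 5292318 bp away. The other genes among the first 12 with a CRE in the window were Cdadc1, a cytidine deaminase family gene, Tra2a, which encodes a splicing regulator, and Kif17, a kinesin gene.

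Of the 683 regions, 308 had their peak midpoint inside a promoter window, which runs from 250 bases before a start site to 50 bases after it. These windows were available for 17492 of 21887 protein-coding genes and for no gene of chromosome 18, so regions at the other genes enter no motif count. A CRE was present in 52 of the 308 windows (16.9%, 95% Wilson interval 13.1 to 21.5). It was present in 2.23% of all 21263 promoter windows of protein-coding genes, and in 0.604% of the 8106 windows that had an H3K4 midpoint within 1000 bp of the start site and no CREB midpoint. The 53 CREs of the E16.5-only windows centred on the peak: the one nearest to the midpoint lay a median of 20 bp away (quartiles 5 and 49), within 50 bp in 40 of 52 windows, and 19 of the 53 sites lay within 10 bp. This closeness was not particular to E16.5 only. The median was 24 bp at E16.5 and E18.5 only and 21 bp at all stages. The CRE lay within 50 bp in 76.9%, 72.4% and 64.8% of the windows with a CRE in these 3 groups. Each window was chosen to hold the midpoint, which limits this distance. The first base of the CRE lay a median of 45 bp upstream of the start site, with quartiles of 69 and 26 bp upstream. A motif match describes the letters of a window and does not show a bound site.

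At gene-end regions with a peak of E18.5 only, 0 of 228 windows held a CRE, which allows a share of up to 1.32% (3 counts of the total; the upper Wilson bound is 1.66%). With every CREB peak set to 150 bp, which changes the regions of each group, the share was 16.9% (13.3 to 21.2, 343 windows) at E16.5 only. At E18.5 only it was then 2.09% (1.02 to 4.25, 335 windows). That is close to the 2.23% of all promoter windows and above the 0.604% (0.458 to 0.798) of windows with H3K4 and no CREB. The shares were 12.7% (10.5 to 15.2; 98 of 773) at regions with E16.5 and E18.5 only and 17.7% (14.2 to 21.7; 71 of 402) at regions with all stages. Intervals cover counting error over windows of 1 library and not the variation between animals, so no test between the groups was possible. With windows that the region merely overlapped, the share was 12.3% (9.91 to 15.1; 75 of 611) for E16.5 only, against 9.38% (7.94 to 11.1) for E16.5 and E18.5 only, 15.4% (12.9 to 18.2) for all stages and 0.319% (0.0564 to 1.79; 1 of 313) for E18.5 only. The peaks of E18.5 that were shared with E16.5 had a CRE in 14.3%, 11.4%, 16.2% and 9.85% of their windows in successive blocks when the E18.5 list was cut into 4.

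**Figure D1:**
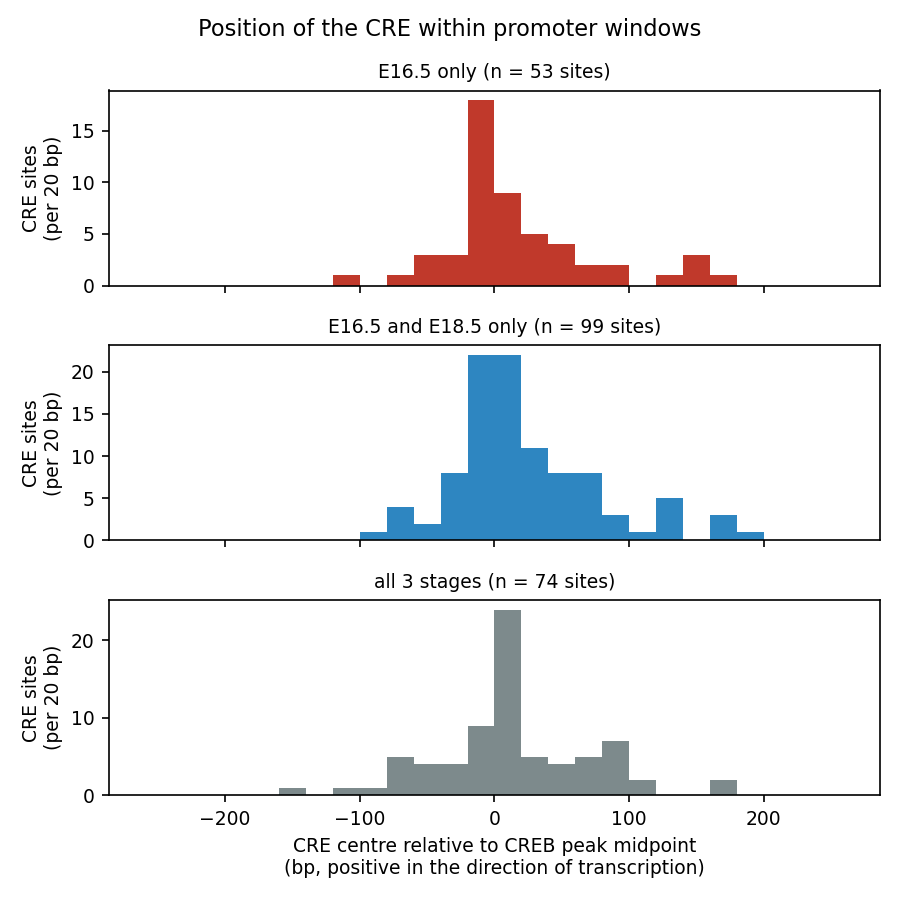
Distance in bp of each CRE centre from the CREB peak midpoint, positive in the direction of transcription, counted in bins of 20 bp. The panels show regions with E16.5 only (53 sites), E16.5 and E18.5 only, and all stages. The sites of the E16.5-only regions crowd around 0, with 19 of 53 within 10 bp of the midpoint. The nearest CRE of a window lay a median of 20, 24 and 21 bp from the midpoint in these groups, in the same order.

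The core was also more frequent at E16.5 only than at E18.5 only. TGACG on either strand, which each full CRE also contains, was present in 65.3% (59.8 to 70.4) of the E16.5-only windows, against 64.7% (61.2 to 68.0) at E16.5 and E18.5 only, 83.6% (79.6 to 86.9) at all stages, 37.3% (31.3 to 43.7) at E18.5 only and 23.6% of all windows. A core without a full CRE was found in 48.4% (42.9 to 53.9) of the E16.5-only windows, and 34.7% (29.6 to 40.2) had neither; at E18.5 only these shares were 37.3% and 62.7% (56.3 to 68.7). Among the early-listed regions with a core alone were those of Slc25a16, a mitochondrial carrier gene, and Dusp5, which encodes a phosphatase of the kinase ERK, shown here with the core (either strand) in capitals.
Slc25a16 (chr10:62920573-62920632, plus strand): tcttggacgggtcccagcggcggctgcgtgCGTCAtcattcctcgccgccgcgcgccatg
Dusp5 (chr19:53529060-53529124, plus strand): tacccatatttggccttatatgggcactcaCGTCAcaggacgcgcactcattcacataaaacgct

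Other promoter motifs were searched in the same windows on both strands. The CCAAT box (CCAAT) was present in 46.1% (40.6 to 51.7) of the E16.5-only windows, against 56.1% (52.6 to 59.6), 59.5% (54.6 to 64.1) and 56.6% (50.1 to 62.9) at E16.5 and E18.5 only, all stages and E18.5 only, and in 38.2% of all windows. The interval of the E16.5-only windows met none of those at E16.5 and E18.5 only or at all stages, and overlapped that at E18.5 only. The GC box (GGGCGG) was found in 70.1% of the E16.5-only windows and 46.2% of all windows, an ETS motif (CCGGAAG) in 23.4% and 11.6%, the E-box (CACGTG) in 11% and 7.84%, and the palindromic NRF1 motif in 2.60% and 1.33%. Windows with H3K4 and no CREB held these motifs in 32.8% (CCAAT box), 67.0% (GC box), 17.1% (ETS), 10.1% (E-box), 2.26% (NRF1) and 21.9% (CRE core) of cases. Median GC content was 61.3% in the E16.5-only windows and 62.3% in the windows with H3K4 and no CREB, against 56.3% in all windows.

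The regions stood late in the E16.5 list. What the order of the list stands for is not known here. When the list was cut into 10 blocks, block 1 gave 3 of the regions (0.855% of its 351 peaks), block 5 gave 57 (16.1%) and block 9 gave 131 (37.1%). Their median place was at 71.9% of the list (quartiles 55.0 and 85.9), against 47.6% for regions with E16.5 and E18.5 only and 12.4% for regions with all stages. E16.5-only regions away from gene ends stood later still, at 81.7%, and E18.5-only regions had their median at 76.2% of the E18.5 list. The CRE share moved with list position, and this was compared within 4 blocks of the E16.5 list. In block 2, 37.3% (25.3 to 51.0; 19 of 51) of the E16.5-only windows held a CRE, against 13% (9.69 to 17.3; 39 of 299) at E16.5 and E18.5 only. In block 3 the shares were 23.9% (17 to 32.5; 27 of 113) at E16.5 only and 5.45% (3.15 to 9.29; 12 of 220) at E16.5 and E18.5 only, and in block 4 they were 2.90% (1.13 to 7.22; 4 of 138) and 2.19% (0.747 to 6.24; 3 of 137). In block 1, 2 of 6 E16.5-only windows held a CRE (33.3%, 9.68 to 70.0), too few to compare, against 44 of 117 (37.6%, 29.4 to 46.6) at E16.5 and E18.5 only. At regions with all stages the shares were 20.7% (64 of 309) in block 1 and 7.41% (6 of 81) in block 2, with 10 windows in block 3 and 2 in block 4. The core was present in 86.3%, 70.8% and 51.4% of the E16.5-only windows of blocks 2, 3 and 4, against 70.2%, 52.7% and 53.3% at E16.5 and E18.5 only.

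**Figure D2:**
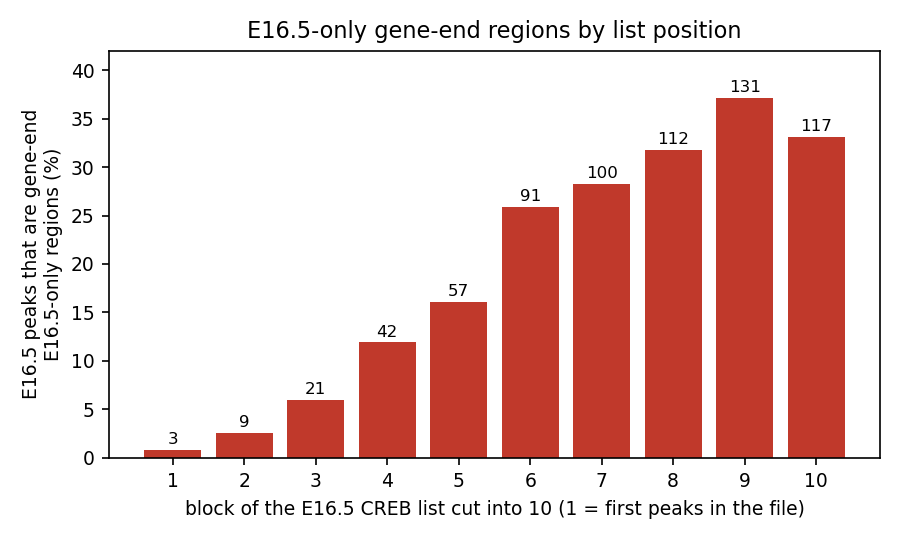
Share of the E16.5 peaks in each of 10 blocks of the list that are gene-end regions with E16.5 only (bars, in percent, from 0), with the number of such regions above each bar. The bar stands at 0.855% in block 1 and at 37.1% in block 9, the highest.

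**Figure D3:**
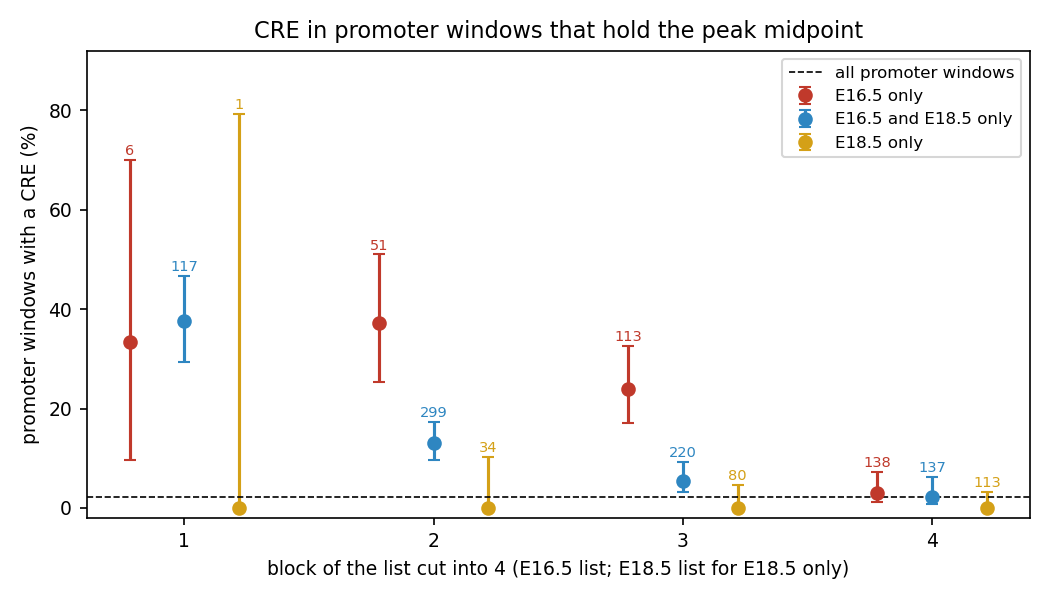
Share of promoter windows with a CRE (points, in percent, with 95% Wilson intervals and the number of windows above) by block of the list cut into 4, which is the E16.5 list for regions with an E16.5 peak and the E18.5 list for regions with E18.5 only. Regions with E16.5 only stand at 37.3% and 23.9% in blocks 2 and 3, and regions with E16.5 and E18.5 only at 13% and 5.45%. In block 4 they stand at 2.90% (of 138 windows) and 2.19%, and in block 1 at 33.3% (of 6 windows) and 37.6%. Regions with E18.5 only stand at 0 in each block, of 1, 34, 80 and 113 windows. The dashed line marks the 2.23% of all promoter windows.

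The earliest-listed of these regions mixed isolated peaks with peaks that narrowly missed one of E18.5. Of the first 20, 6 had another CREB midpoint within 1000 bp, against 23 of all 683, and at each of these 23 an E18.5 midpoint was the nearest or as near as any. Position 37 lay at the histone genes H3c1 and H4c1 and position 535 at H2bc3 and H3c3, with an E18.5 midpoint 433 and 431 bp away. Positions 90, 257, 595 and 657 lay at Crlf2, a cytokine receptor gene, at Akt1s1, which encodes an inhibitor of the growth kinase complex mTORC1, and its neighbour Tbc1d17, at the kinase gene Map3k11 and Pcnx3, and at Smchd1, which encodes a chromatin protein of X inactivation, with an E18.5 midpoint 467, 479, 397 and 444 bp away. At positions 37, 90 and 257 an E13.5 midpoint was also near, 433, 478 and 487 bp away. The smallest gaps to another stage's peak were 2 bp at Map3k11 and Pcnx3, 2 bp at Mvd, 6 bp at Cldnd1, 7 bp at Nrn1 and 11 bp at Gart and Son. Just on the other side of the rule, E16.5 and E18.5 peaks touched by 1 bp at H13 and by 4 bp at Fem1a and Spag9. At the limit of 1000 bp to a gene end, Camk2n2, Mrpl36 and Arhgef1 were inside at 976, 969 and 932 bp, and regions near Slc6a9, Nckap5l and Btbd19 were outside at 1008, 1015 and 1047 bp.

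The remaining 14 of the first 20 were isolated. Rel, which encodes a subunit of the transcription factor NF-kB, stood in position 366 (chr11:23770922-23771551), with the midpoint 267 bp from the gene end and an H3K4 midpoint 256 bp away. Tead1, a transcription factor gene of the Hippo pathway, stood in position 532 (chr7:112678838-112679467), with its nearest H3K4 midpoint 1037 bp away. Atp6v0c, which encodes a subunit of the vacuolar proton pump, stood in position 542 with H3K4 40 bp away, and Ing5, which encodes a subunit of histone acetyltransferase complexes, in position 596, with an E18.5 midpoint 2076 bp away. Pinx1, which encodes a telomerase inhibitor, followed in position 653, and Exosc7, which encodes an RNA exosome subunit, with Zdhhc3 in 787. Aasdh stood in position 802, Slc25a16 in 831, Dusp5 in 854, the pair of Fancd2, a DNA repair gene, and Emc3 in 862, Cdadc1 in 873 and Smpd4 in 896. Over all 683 regions the nearest midpoint of another CREB list lay a median of 110805 bp away (quartiles 34751 and 374654), beyond 100000 bp for 358 of them and beyond 1000000 bp for 65. The greatest distances were 7075035 bp at Ccdc171, 5558547 bp at Tmx3, 5510117 bp at Hdx, 5292318 bp at Cdkn2b and 5169670 bp at Rybp.

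Most of the regions sat on a gene start. Where the strand was known, 548 regions lay at the outer start of a gene and 15 at no outer gene start; for 120 the strand was not resolved. A gene can have further start sites within it, and of the 15, the regions of Mrpl36 and of Erbb2 with Mien1 had their midpoint 115 bp upstream of a listed Mrpl36 start and 135 bp downstream of a listed Mien1 start. Of the 666 regions on chromosomes with promoter windows, 532 had their midpoint within 1000 bp of a listed start site (79.9%, 76.7 to 82.7), against 84.6% (82.5 to 86.4) at E16.5 and E18.5 only, 85.8% (82.9 to 88.3) at all stages and 83.0% (78.7 to 86.6) at E18.5 only. Their midpoints lay upstream of the start site in 66.0% of cases (61.8 to 69.9), less often than at E16.5 and E18.5 only (73.5%, 70.8 to 76.1), all stages (77.7%, 74.0 to 81.0) and E18.5 only (83.4%, 78.7 to 87.2), with intervals that did not overlap and no test between libraries. The median position was 56 bp upstream, with quartiles from 181 bp upstream to 42 bp downstream, against 72, 83 and 93 bp upstream in the other groups in the same order. The ends of more than 1 protein-coding gene lay within reach of 148 regions (21.7%, 18.7 to 24.9), against 22.5% (20.3 to 24.8), 29.7% (26.3 to 33.3) and 21.7% (17.7 to 26.2). At Naa80, Hyal1 and Hyal3, and at Trim23, Trappc13 and Shld3, a region lay at the ends of 3 genes. By chromosome, the E16.5-only regions made up 25.6% (24.0 to 27.3) of the 2668 gene-end regions with an E16.5 peak, with the highest share among chromosomes of over 50 such regions on chromosome 15 (37.4%, 28.8 to 46.8) and the lowest on chromosome 7 (18.3%, 14.0 to 23.6).

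H3K4 peaks of E18.5, which the choice of regions did not use, lay next to nearly all of these regions although CREB was not listed there at E18.5. Of the 683 regions, 633 had an H3K4 midpoint no more than 1000 bp off (92.7%, 90.5 to 94.4), against 93.2% (91.7 to 94.4) at E16.5 and E18.5 only, 95.7% (93.9 to 97.0) at all stages and 90.0% (86.5 to 92.7) at E18.5 only. E16.5-only regions away from gene ends had one in 50.3% (45.8 to 54.8; 235 of 467). The nearest H3K4 midpoint within that limit was a median of 236 bp away (quartiles 113 and 396) and, at start sites, stood on the side of transcription in 62.5% of cases (58.2 to 66.6). H3K4 midpoints on both sides were found at 23.3% (20.3 to 26.6), against 27.4% (25.1 to 29.9), 34.4% (30.9 to 38.1) and 21.9% (18 to 26.5) in the other groups in the same order. With a CRE in the window, 51 of 52 regions had an H3K4 midpoint within 1000 bp (98.1%, 89.9 to 99.7), and without one 247 of 256 (96.5%, 93.5 to 98.1). Of the 50 regions with no H3K4 midpoint so near, H3c1 with H4c1, Tead1, Heca, Rbbp6 and Adgrl1 were the first in the list, with H3K4 4816, 1037, 1480, 1246 and 23816 bp away.

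**Figure D4:**
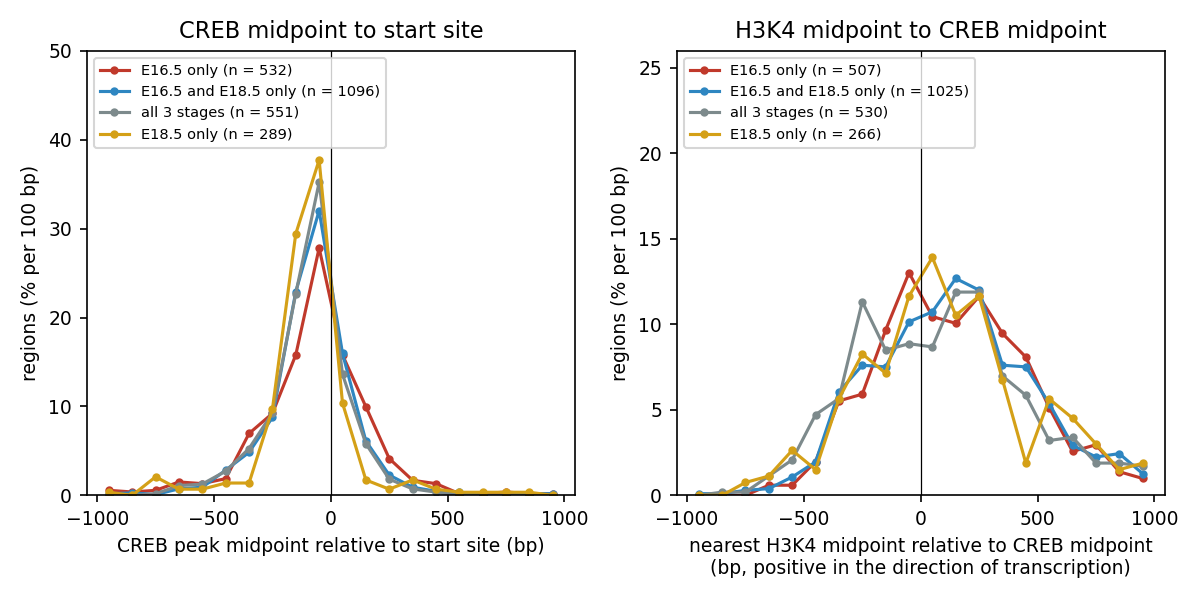
Left, position in bp of the CREB peak midpoint relative to the nearest listed start site, and right, position of the nearest H3K4 midpoint relative to the CREB midpoint, both in percent of regions per 100 bp and oriented by transcription. The E16.5-only regions (red, 532 on the left) peak just upstream of the start site like the others but reach farther downstream, with 66.0% upstream against 83.4% for E18.5 only.

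The 683 regions touched the ends of 832 protein-coding genes, which is 3.80% of the 21887 tested, and 783 of these had no other CREB region at an end. Any E16.5 peak was found at 14.9% of protein-coding genes, and an H3K4 peak at 52.7% as above. An H3K4 peak was present at 780 of the 832 genes (93.8%, 91.9 to 95.2), and among all 11534 genes with H3K4 at an end, 6.76% had an E16.5-only region. Counts in the 33 gene lists below are set beside these shares, and no list was tested. A peak at a gene end is not a measure of expression.

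Among signalling lists, NF-kB and innate signalling had 6 of 26 members with an E16.5-only region (23.1%, 11 to 42.1), and 6 of its 24 members with H3K4. This list was written knowing that the Rel peak was early in the list. Beside Rel these were Rela, which encodes another NF-kB subunit, Chuk and Ikbkb, which encode the kinases that release it, Map3k7, which encodes the kinase upstream of them, and Irf1, an interferon-responsive transcription factor gene. The midpoint lay 9 bp from the gene end at Ikbkb (chr8:22706266-22706895, position 1371), 21 bp at Map3k7, 58 bp at Chuk, 108 bp at Rela and 121 bp at Irf1. H3K4 stood within 500 bp at all 6, and the Rela and Chuk windows held no CRE. The Chuk region was also that of Cwf19l1. The list as a whole had 10 members with any E16.5 peak. The Hippo list had 1 of 19, Tead1, TGF-beta, activin and BMP signalling 1 of 31, Smad2, and mTOR and autophagy 6 of 56 (10.7%, 5.0 to 21.5), with Akt1s1, Rps6kb2, Atg2b, Atg5, Sqstm1 and Fnip1. Akt1s1 and Sqstm1 also had another CREB region at an end. With no other CREB midpoint allowed within 1000 bp, the mTOR and autophagy list had 4 such genes. Atg5, which encodes a factor needed to form autophagosomes, had a CRE in its window, and its nearest other CREB midpoint lay 1113259 bp away.

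Genes of the CREB pathway itself were among those with an E16.5-only region. The list of CREB and ATF family and coactivator genes had 4 of 25 (16%, 6.40 to 34.7). All 4 were among its 22 members with H3K4 (18.2%, beside 6.76% of all genes with H3K4). They were Crebbp, which encodes the acetyltransferase that phosphorylated CREB recruits (position 2458, 319 bp from the gene end), Sik2 and Sik3, which encode kinases that hold the CRTC coactivators in the cytoplasm, and Atf6b, where the region lay at the far end of the gene, 8468 bp from its start site. The Sik3 region was also that of the start of its neighbour Pafah1b2, and Atf6b also had another CREB region at an end. The cAMP and PKA signalling list had 4 of 40 (interval 3.96% to 23.1%), namely Pde8a and Pde10a, which encode phosphodiesterases, Akap8, which encodes an anchoring protein of protein kinase A, and Pkig, which encodes an inhibitor of that kinase. Of the 31 members with H3K4, 4 had such a region (12.9%). The Akap8 region was also that of Akap8l. Sik2 was the 1 of 39 cAMP-induced CREB targets with such a region (2.56%, 0.454 to 13.2), while 15 of them had an E16.5 peak of any kind, 10 of these at a region of all stages. The Sik2 midpoint lay 47 bp upstream of the start site, in a window with 2 cores and no CRE.

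Cell cycle genes had 7 of 49 members with an E16.5-only region (14.3%, 7.10 to 26.7), beside 3.80% of all protein-coding genes. Of the 40 members with H3K4, 6 had one (15.0%), beside 6.76% of all genes with H3K4. Cdk2 and Cdk4, which encode kinases of the G1 and S phases, had midpoints 34 bp upstream and 101 bp downstream of their start sites, and Ccne1, the cyclin partner of Cdk2, 274 bp upstream. The others were Ccnh, Top2a, and Anapc1 and Anapc5, which encode subunits of the anaphase-promoting complex. DNA replication and repair had 4 of 58 (6.90%, 2.71 to 16.4), with Orc5, Mcm7, which encodes a helicase subunit, Prim2, a primase gene, and Fancd2. Of the 51 members with H3K4, 4 had such a region (7.84%). The Mcm7 region was also that of Ap4m1, and the Fancd2 region also that of Emc3. Histone lysine modifiers had 9 of 70 (12.9%, 6.91 to 22.7) and 8 of 53 with H3K4, namely the methyltransferase genes Kmt2c, Kmt2d, Nsd2 and Ezh1, the demethylase genes Kdm1b and Kdm2b, Kdm8, the acetyltransferase gene Kat8 and the deacetylase gene Hdac10. Ccnh and Hdac10 also had another CREB region at an end. At Kmt2d the region lay at the start of Prkag1, 44 bp upstream of it, and the region at Ezh1 had its midpoint 888 bp from the end of the neighbour Cntnap1. The Kdm1b region was also that of Tpmt, and the Nsd2 region also that of Gm52782. Replication-dependent histone genes had 6 of 64 (9.38%, 4.37 to 19.0) at 3 regions of chromosome 13, and 4 of the 6 also had another CREB region at an end. Of the 24 members with H3K4, 4 had an E16.5-only region (16.7%).

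Lists of protein synthesis and mitochondria stood on both sides of the 3.80% of all protein-coding genes. If only members that carry H3K4 are counted, the share to set beside them is 6.76%. Translation initiation then stood at 11.1%, splicing factors and hnRNP at 9.84% and mitochondrial ribosomal proteins at 7.25%, close to that share. Cytosolic ribosomal proteins stood at 3.95%, the proteasome at 2.38%, Rab GTPases at 1.92% and oxidative phosphorylation at 1.19%. Translation initiation had 5 of 46 (10.9%, 4.73 to 23.0), with Eif1a, Eif2ak1, Eif2b1, Eif3b and Eif3h. Splicing factors and hnRNP had 6 of 69 (8.70%, 4.05 to 17.7), among them Hnrnpr, Hnrnph3, Snrpd3, Prpf4b and Hnrnpk, of which the regions of Hnrnph3, Snrpd3 and Hnrnpk were shared with a neighbour. The Eif1a region was also that of Tmed7, and the Eif2b1 region also that of Gtf2h3. Eif1a and Prpf4b also had another CREB region at an end. Mitochondrial ribosomal proteins had 5 of 78 (6.41%, 2.77 to 14.1), with Mrpl16, Mrpl36, Mrpl50, Mrpl51 and Mrps17, where the Mrpl50 region was also that of Zfp189 and the Mrpl51 region also that of Ncapd2. Cytosolic ribosomal proteins had 3 of 85 (3.53%, 1.21 to 9.87), with Rpl23, Rpl26 and Rps16, although 36 had an E16.5 peak of any kind. With every CREB peak 150 bp wide, this list had 6 genes with an E16.5-only region. Oxidative phosphorylation had 1 of 99 (1.01%, 0.179 to 5.50), Uqcrfs1, of 20 with any E16.5 peak, Rab GTPases 1 of 59, Rab22a, of 20, and the proteasome 2 of 51, Psmb3 and Psmg4, of 14. With 150 bp peaks these lists had 2, 2 and 3, in the same order. The Psmb3 region was also that of Pcgf2. The broad families gave 19 of 394 for zinc finger genes (4.82%, 3.11 to 7.41), 15 of 369 for solute carriers (4.07%, 2.48 to 6.60), 13 of 235 for Tmem genes (5.53%, 3.26 to 9.23) and 12 of 277 for ubiquitin ligases and conjugating enzymes (4.33%, 2.5 to 7.42). With every CREB peak 150 bp wide, these counts were 32, 16, 14 and 18. Over all protein-coding genes, 1050 then had such a region, against 832. Of the family members that carry H3K4, 6.42%, 6.97%, 8.18% and 6.49% had such a region, in the same order, beside 6.76%. Among the zinc finger genes, Zfp335 and Zfp523 had a CRE in the window, with the midpoint 49 and 11 bp downstream of the start site. Of the solute carriers, Slc38a2, which encodes a transporter of neutral amino acids, had its midpoint 43 bp upstream of the start site, H3K4 50 bp away and the nearest other CREB midpoint 1868070 bp away, in a window with a core and no CRE. The Tmem183a region, with its midpoint 190 bp upstream of the start site, had a CRE 157 bp from that midpoint. Of the ubiquitin ligase genes, Cul4a, which encodes a cullin scaffold, had its region 4 bp upstream of the start of Pcid2, with which it shared it.

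The lists of testis function were small, and their counts did not stand apart from the background of 3.80%. Steroidogenesis and Leydig cells had 1 of 27 (3.70%, 0.657 to 18.3), Hsd17b1, an estradiol-forming enzyme gene, at a region it shared with Coasy, and 0 of 27 with gene-end windows of 500 bp or with 150 bp peaks. Cholesterol synthesis and uptake had 1 of 32 (3.12%, 0.554 to 15.7), Mvd, of the mevalonate pathway, where an E18.5 midpoint lay 397 bp away, while 15 of the list had an E16.5 peak of any kind. With no other CREB midpoint allowed within 1000 bp this list had 0 such genes, and with 150 bp peaks it had 2. In other lists, the unfolded protein response had 3 of 26 (11.5%, 4.0 to 29.0), Ddit3, Calr and Creld2, each at a region shared with a neighbour, and the circadian clock 3 of 23 (13%, 4.54 to 32.1), Tef, Bhlhe40 and Csnk1e. Ddit3, Calr and Bhlhe40 also had another CREB region at an end. No member had an E16.5-only region among 23 Sertoli cell genes, 30 fetal germ cell genes, 13 endothelial genes, 19 genes of macrophages and blood cells, 19 hedgehog pathway genes, 33 Wnt signalling genes and 56 ubiquitin-specific protease genes; counts of 0 in these lists allow shares of up to 13%, 10%, 23.1%, 15.8%, 15.8%, 9.09% and 5.36%. With 150 bp peaks, the Wnt signalling and ubiquitin-specific protease lists each had 2 genes with an E16.5-only region. With gene-end windows of 2500 bp, the list of macrophages and blood cells had 1. The Sertoli cell, germ cell, endothelial and macrophage and blood cell lists had no E16.5 peak of any kind at an end.

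**Figure D5:**
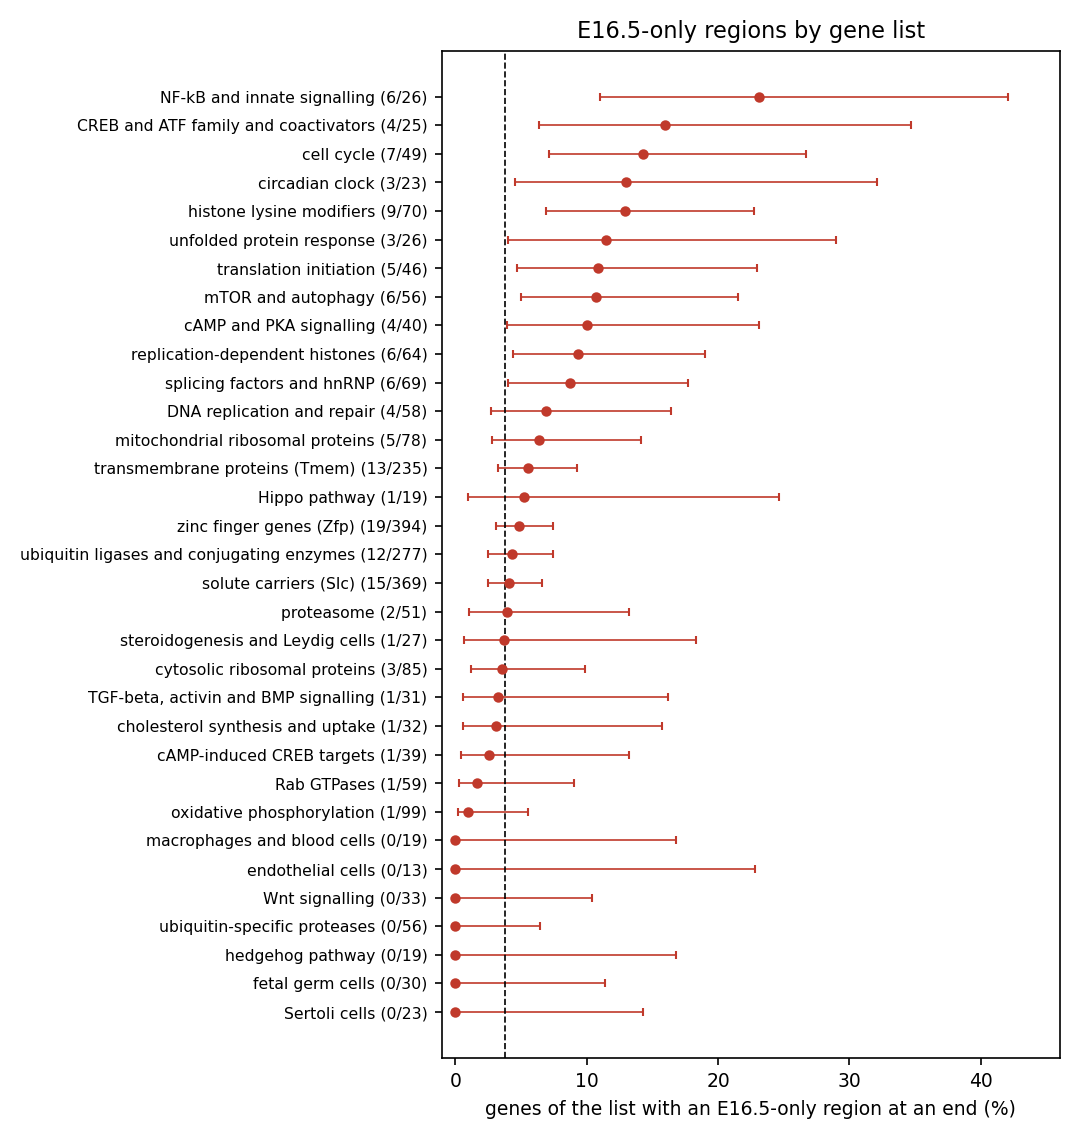
Share of the genes of each list with an E16.5-only region at an end (points, in percent, with 95% Wilson intervals), with the counts beside the list names; the dashed line marks the 3.80% of all protein-coding genes. NF-kB and innate signalling stands highest at 23.1%, and 7 lists stand at 0. The share among genes that carry H3K4 was higher than the dashed line, at 6.76%. The NF-kB list was written knowing of the early-listed Rel peak, so its place among the lists is a description only.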

How the data were processed

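CUT&RUN was done on 100000 cells per assay passed through a 70 µm filter, per the labels' protocols. The deposited peak lists hold chromosome, start and end, with no score or read count. Tools listed in the submitters' processing notes are MACS2, Bowtie2 2.5.2 and Trim Galore 0.6.10, with build mm10. Peak calling settings, and any use of the IgG library, whose labels name 2 stages, were not given in the sources used here. Gene ends and promoter windows came from RefSeq tables of GRCm38.p6. Peaks were merged by overlap, and each share has a Wilson interval for counting error alone. Motifs were searched in the window of the nearest start site when it held the peak midpoint: the E16.5 midpoint, or the E18.5 one for regions of E18.5 only. Named genes are those at the first 20 regions by file order, the first 10 with no other CREB midpoint within 1000 bp, the first 12 with a CRE, the 5 nearest to and the 5 farthest from another CREB midpoint, the 3 on each side of the gene-end limit, regions at 3 gene ends, and list genes; of the broad symbol families only examples are named, chosen after their values were seen, as were Zfp523, Pak1 and the peaks with the smallest overlap. Some genes that this rule names are not reported here. The members and the 33 lists were chosen with earlier results of these data known, and 3 symbol patterns were narrowed after counts were seen. Of 636 symbols fixed, 1 was not found. Code was tested on simulated data. Python 3.11.15, numpy 2.4.6, pandas 2.3.3, statsmodels 0.14.6 and matplotlib 3.10.9 were used.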

Additional observations from a re-analysis of the deposited data

How the results depend on the processing

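With gene-end windows of 500 and 2500 bp, 150 bp peaks, midpoint limits of 200 and 1000 bp, all annotated genes or gene starts only, the number of regions stayed between 548 and 874, within 1.5 times the 683 reported. It was 2668 with a reciprocal overlap of 50%, which a 630 bp peak cannot reach with the narrower peaks of the other stages, and 132 in the first 50% of the E16.5 list. The 150 bp set held 676 of the 683 regions. The H3K4 share was 79.2% within 500 bp, 72.3% by direct overlap, 89.9% with all annotated genes, 94.7% at gene starts and 94.7% in the first 50% of the list. The CRE share was 12.3% over windows the region overlapped, 9.42% over all windows of the genes and 36.8% in the first 50% of the list (chosen after seeing the data); for E18.5 only it was 2.09% with every peak 150 bp wide, also chosen after seeing the data. Regions at several genes made up 18.4% and 26.4% with windows of 500 and 2500 bp. Of 132 list counts recomputed, 116 stayed within 1.5 times, 12 were higher and 4 lower beyond that. No paired analysis was possible because each group has 1 library, and for the same reason no library could be left out.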

Other observations

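E16.5-only regions away from protein-coding gene ends numbered 467, and 40 of them had their midpoint in a promoter window. Of these 40 windows, 9 held a CRE (22.5%, 95% Wilson interval 12.3 to 37.5), a median of 21 bp from the midpoint, beside 16.9% of the windows at gene ends. No annotated miRNA hairpin overlapped any of the 683 gene-end regions.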
